A study of Homo sapiens with 19 samples.

Results

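The oxidative phosphorylation genes comprised PPARGC1A and the 98 protein-coding genes whose symbols mark subunits of complexes I to IV or of ATP synthase, chosen by symbol pattern from the 44717 gene identifiers listed for any sample. Of these 99 members, 85 subunits were encoded in the nucleus, 13 were encoded in the mitochondrial genome and the last was PPARGC1A. The patterns matched 223 identifiers, of which 118 pseudogenes and 6 other genes that are not annotated as protein-coding were left out. By complex, nuclear and mitochondrial members numbered 38 and 7 for complex I, 4 and 0 for complex II, 9 and 1 for complex III, 15 and 3 for complex IV, and 19 and 2 for ATP synthase. Complexes were assigned by symbol, which places NDUFA4, a subunit of complex IV, with complex I.

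RNA was sequenced from 501Mel cells, a human melanoma line, and from the melanocyte line Hermes 3A, after infection with lentiviral short hairpin RNAs. 501Mel cells carried shBRG1 or its control shSCR1 (3 replicates each), or shMITF or its control shSCR2 (2 replicates each), while Hermes 3A cells carried shSCR, shBRG1 or shMITF (3 replicates each). BRG1, encoded by SMARCA4, is an ATPase of chromatin remodelling complexes, and MITF is the lineage transcription factor of melanocytes. The labels do not say whether the scramble vectors shSCR1 and shSCR2 differ, whether replicates were separate cultures or when cells were harvested, so p-values measure the spread between these libraries only.

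Oxidative phosphorylation couples electron transfer through complexes I to IV to proton pumping, and ATP synthase uses the proton gradient to make ATP. Most subunits are encoded in the nucleus and imported, whereas a few core subunits of every complex except complex II are made inside the organelle from mitochondrial transcripts, which come from long polycistronic RNAs read from both strands of the mitochondrial DNA. PPARGC1A encodes PGC-1alpha, a coactivator that works with ERR and NRF factors on nuclear genes of mitochondrial function. In melanoma it is known as a target of MITF that marks tumours with high oxidative metabolism.

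The gene counts of a sample summed to 29158502 to 78857900, so that counting error was small for all but a few members. The shRNAs lowered their targets: SMARCA4 fell by 2.36 on the log2 scale with shBRG1 in 501Mel cells and by 2.38 in Hermes 3A cells, and MITF fell by 1.06 and 0.85 with shMITF. MITF also fell by 1.55 with shBRG1 in 501Mel cells and by 0.43 in Hermes 3A cells. However, both targets were higher with shSCR2 than with shSCR1, SMARCA4 by 0.83 and MITF by 0.97 (edgeR adjusted p = 4.5e-06 and 1.4e-05). All 8 melanocyte lineage markers were at 1 CPM (counts scaled to a common library total) or more in all 7 groups, and their summed level was 29433 to 31637 CPM with shSCR1, 3167 to 3464 with shBRG1, 20811 to 23349 with shSCR2, 11484 to 11905 with shMITF in 501Mel cells, 63523 to 64714 with shSCR, 30408 to 32047 with shBRG1 and 26161 to 34228 with shMITF in Hermes 3A cells. The 7 keratinocyte markers summed to between 0.619 and 8.56 CPM and the 8 fibroblast markers to between 3.98 and 229 CPM over all samples. KRT5 and KRT14, which define basal keratinocytes, were at 0 counts in all Hermes 3A samples. The summed fibroblast markers moved with shBRG1, from 3.98 to 5.47 CPM up to 17.0 to 20.6 in 501Mel cells and from 76.1 to 85.2 up to 145 to 153 in Hermes 3A cells. They were also higher with shMITF in Hermes 3A cells, at 118.7 to 229 CPM, and the keratinocyte markers went from 1.09 to 1.14 CPM with shSCR1 to 7.86 to 8.56 with shBRG1 in 501Mel cells. The part of these markers in the results was not tested. In bulk RNA, fewer cells of a type and less RNA per cell cannot be told apart.

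PPARGC1A (ENSG00000109819, chromosome 4 from 23755041 to 23904089 on the minus strand in GRCh38) was far higher in 501Mel cells than in Hermes 3A cells. With all 19 samples normalized together, its level was 246 ± 23.0 CPM with shSCR2 (n = 2), 149.8 ± 11.3 with shSCR1 (n = 3), 73.4 ± 9.47 with shMITF in 501Mel cells (n = 2) and 15.0 ± 1.83 with shBRG1 in 501Mel cells (n = 3). In Hermes 3A cells it was 5.53 ± 0.348 CPM with shBRG1, 3.39 ± 1.38 with shMITF and 2.95 ± 0.307 with shSCR (SD, n = 3 each). The last pair overlapped between samples, and no other pair of neighbours in this order did. The scramble mean of 501Mel cells was 50.7 times that of Hermes 3A cells with shSCR1 and 83.3 times with shSCR2. The plot of PPARGC1A by sample shows these levels.

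**Figure D1:**
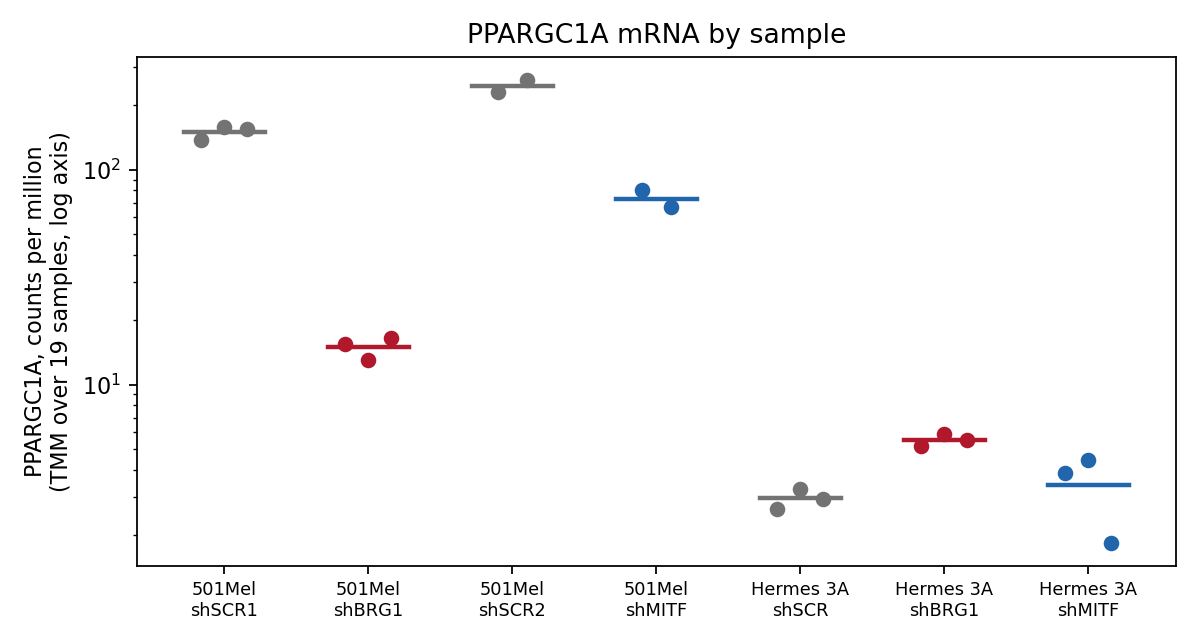
PPARGC1A mRNA in CPM (log axis, TMM normalization over all 19 samples) for each sample, with bars at the group means. The 501Mel samples with shBRG1 lie between 12.9 and 16.5 CPM, below all other 501Mel samples, and all Hermes 3A samples lie at or under 5.89 CPM.

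PPARGC1A is read from more than 1 start, and the windows of 250 bases before to 50 bases after its RefSeq starts on GRCh38.p14 are shown because the E-boxes that MITF family factors bind have the letters CATGTG or CACGTG. Capitals mark every match, on either strand, to these 2 motifs and to GCATGCGC (the NRF1 core), AAGGTCA (the ERR site), CCGGAAG (an ETS site) and AAGATGG (a YY1 site). The window at chr4:23881052-23881351 lies within the annotated gene and holds CATGTG from base 122, while that at chr4:24472856-24473155 lies upstream of it and holds CACGTG from base 128, both on the minus strand.
PPARGC1A, inner window: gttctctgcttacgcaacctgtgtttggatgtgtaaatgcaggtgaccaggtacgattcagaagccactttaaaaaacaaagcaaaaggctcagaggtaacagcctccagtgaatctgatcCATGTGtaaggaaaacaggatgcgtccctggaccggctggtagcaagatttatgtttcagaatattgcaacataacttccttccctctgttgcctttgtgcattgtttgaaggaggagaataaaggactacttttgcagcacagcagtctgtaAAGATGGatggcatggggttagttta
PPARGC1A, outer window: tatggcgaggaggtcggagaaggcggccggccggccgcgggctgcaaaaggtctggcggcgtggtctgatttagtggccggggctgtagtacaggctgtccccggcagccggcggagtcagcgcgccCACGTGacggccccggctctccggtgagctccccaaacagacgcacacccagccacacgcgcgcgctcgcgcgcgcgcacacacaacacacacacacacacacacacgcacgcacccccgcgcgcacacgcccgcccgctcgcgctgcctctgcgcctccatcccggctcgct
CATGTG was found in 9 of the 83 windows of the 69 members with an entry, against 11.1% of all 35116 windows, and CACGTG in 7 of 83 against 7.26%. A match is a description of these letters and not of a bound site.

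BRG1 silencing lowered PPARGC1A mRNA in 501Mel cells 10.5-fold. Within this comparison, where CPM were normalized over its own samples, the shSCR1 samples were at 159, 185 and 181 CPM and the shBRG1 samples at 17.3, 14.5 and 18.4. The groups did not overlap, and the log2 fold change was -3.39 ± 0.07 (SE; edgeR quasi-likelihood test, adjusted p = 8.0e-20), the largest fall among the members tested in this comparison. shMITF lowered PPARGC1A 3.27-fold, from 227 and 255 CPM with shSCR2 to 79.2 and 68.6 (log2 fold change -1.71 ± 0.13, edgeR adjusted p = 2.4e-04). Tested against each other, the shBRG1 and shMITF effects differed by -1.65 ± 0.15 (adjusted p = 4.7e-07). However, PPARGC1A was itself higher with shSCR2 than with shSCR1 by 0.73 ± 0.08 (adjusted p = 4.5e-05), and against all 5 scramble samples together the change with shMITF was -1.33 and did not pass the test (adjusted p = 0.055).

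In Hermes 3A cells the direction was the opposite after BRG1 silencing. PPARGC1A was at 2.37, 2.96 and 2.64 CPM with shSCR and at 4.68, 5.34 and 5.03 with shBRG1, without overlap, a rise of 0.93 ± 0.13 on the log2 scale (edgeR adjusted p = 5.3e-07). These levels rest on 111 to 340 counts per sample. With shMITF the samples were at 3.54, 4.08 and 1.67 CPM, on both sides of the shSCR samples, and the change of 0.23 ± 0.34 did not pass the test (adjusted p = 0.68). Both Hermes 3A comparisons used the same shSCR samples. The effect of shBRG1 differed between the cell lines by -4.35 ± 0.13 (501Mel minus Hermes 3A, adjusted p = 3.2e-26) and that of shMITF by -1.96 ± 0.36 (adjusted p = 0.013). The shMITF difference did not pass the test without shSCR2 replicate 2 (-1.86, adjusted p = 0.060) or without 501Mel shMITF replicate 2 (-1.84, adjusted p = 0.094).

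BRG1 silencing in 501Mel cells moved nuclear and mitochondrially encoded members apart. Of the 81 nuclear members that passed the filter on low counts, 55 fell and 11 rose, with a median log2 fold change of -0.36, and of the 13 mitochondrially encoded members 10 rose and 1 fell, with a median of 0.29. Among all 20514 genes tested, 39.1% fell and 41.2% rose, and the median was 0.05. The difference between the medians of mitochondrial and nuclear members was 0.65, a value that the scaling of the libraries does not move. The split of nuclear members depended on the scaling, whereas mitochondrial members mostly rose under both scalings. With library sizes in place of TMM, which raised the median of all genes by 0.35, 33 nuclear members fell and 33 rose. Under library sizes 12 mitochondrial members rose and 0 fell, while 28.5% of all genes fell and 55.1% rose. Of the 55 nuclear members that fell, 33 fell under both scalings and 9 rose under library sizes.

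By TMM, more nuclear members fell than rose in each complex. NDUFA4, a subunit of complex IV, is counted with complex I here because of its symbol. Complex I had 25 falls and 4 rises among 37 tested nuclear subunits, complex II 3 and 0 of 4, complex III 5 and 1 of 9, complex IV 9 and 3 of 13, and ATP synthase 13 and 3 of 18. The medians were -0.37, -0.65, -0.37, -0.47 and -0.20. Library sizes raised the median of all nuclear members by 0.35, about the size of the falls in complexes I and III. At the threshold of an absolute log2 fold change over 1, which 39.1% of all genes passed in either direction, 10 nuclear members fell and 2 rose.

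NDUFB2, an accessory subunit of complex I, was at 53.6, 55.3 and 53.6 CPM with shSCR1 and at 17.9, 19.1 and 18.2 with shBRG1 (log2 fold change -1.56 ± 0.06, adjusted p = 1.2e-17). SDHB, the iron-sulfur subunit of succinate dehydrogenase, was at 141, 150.0 and 156 CPM and then at 53.7, 54.9 and 51.7 (-1.48 ± 0.05, adjusted p = 4.8e-18). NDUFS1, which carries iron-sulfur clusters of the NADH dehydrogenase arm, was at 246, 269 and 263 CPM and then at 90.6, 90.1 and 100.1 (-1.47 ± 0.05, adjusted p = 9.0e-18). In all 3 genes each shBRG1 sample lay under every shSCR1 sample, which was a condition for naming the largest falls. NDUFA5, another accessory subunit of complex I, changed by -1.42 ± 0.06 (adjusted p = 9.6e-17), and these 4 genes fell under every alternative processing tried. SDHA, the flavoprotein partner of SDHB, and UQCRC2, a core protein of complex III, also fell by more than 1 on the log2 scale, by 1.19 and 1.05.

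The promoters of SDHB (chr1:17053983-17054282, minus strand) and NDUFB2 (chr7:140696458-140696757, plus strand) are shown because these genes had the largest falls with shBRG1. They differ in the motifs they hold: SDHB has the ERR site, the NRF1 core, the ETS site and the YY1 site, and NDUFB2 has no match to any of the 6 motifs in this window.
SDHB: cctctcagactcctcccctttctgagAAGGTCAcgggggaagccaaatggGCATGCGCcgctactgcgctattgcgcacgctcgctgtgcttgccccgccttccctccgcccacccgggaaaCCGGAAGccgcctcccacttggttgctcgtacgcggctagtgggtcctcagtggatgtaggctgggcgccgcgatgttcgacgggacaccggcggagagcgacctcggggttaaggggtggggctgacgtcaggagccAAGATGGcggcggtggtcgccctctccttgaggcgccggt
NDUFB2: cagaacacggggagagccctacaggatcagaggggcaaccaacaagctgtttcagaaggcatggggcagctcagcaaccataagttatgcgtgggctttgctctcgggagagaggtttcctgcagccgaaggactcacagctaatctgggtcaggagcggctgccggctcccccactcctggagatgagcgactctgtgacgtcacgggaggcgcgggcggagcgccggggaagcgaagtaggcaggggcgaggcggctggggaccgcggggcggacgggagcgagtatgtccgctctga
Across the 83 windows of members, the NRF1 core was in 15 against 3.05% of all windows, the ERR site in 12 against 3.92%, the ETS site in 21 against 10.3% and the YY1 site in 19 against 5.84%. Some genes have more than 1 window, and these shares are descriptions without a test.

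Among the 11 nuclear members that rose were isoforms, small subunits and a regulator. COX7B2, an isoform of COX7B that is restricted to few tissues, rose from 4.29, 5.00 and 4.42 CPM to 14.9, 13.4 and 14.8 (1.64 ± 0.09, adjusted p = 3.5e-14). COX7A2L, a factor for the assembly of respiratory supercomplexes, rose from 101, 109 and 110.1 CPM to 164, 162 and 159 (0.60 ± 0.05, adjusted p = 5.2e-11). ATP5IF1, the inhibitor of ATP synthase, rose by 0.42 ± 0.05 (adjusted p = 8.3e-08) and ATP5MK, a small subunit of its membrane part, by 0.31 ± 0.04 (adjusted p = 1.4e-06). In each of these genes all shBRG1 samples lay above all shSCR1 samples, which was a condition for naming the largest rises. COX7A2L, ATP5MK and COX7B2 were also higher with shSCR2 than with shSCR1, by 0.42, 0.52 and 1.18 (adjusted p = 5.0e-04, 5.5e-05 and 9.7e-04), and ATP5MK did not pass the test against the pooled scramble samples (0.12, adjusted p = 0.58).

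Tissue-restricted isoforms were low or absent beside their common partners. COX6A2 was not tested in any comparison, with 0 to 7 counts per sample, and COX8C, with 0 to 7 counts, was not tested either. COX7A1, the muscle isoform of COX7A, rose with shBRG1 in 501Mel cells from 0.103 to 0.338 CPM (1.69 ± 0.43, adjusted p = 0.0011), whereas its partner COX7A2 fell from 210.5 to 138.1 CPM. COX6A1, COX6B1, COX7B, COX8A and NDUFA4, a subunit of complex IV despite its symbol, fell by 0.88, 0.53, 0.36, 0.57 and 0.59 on the log2 scale. NDUFA4L2 and COX6B2 were under 1 CPM in both groups and did not pass the test. UQCRH, the hinge protein of complex III, rose by 0.18 ± 0.04, and UQCRHL, which has a nearly identical sequence and can share its reads, was at 1.35 CPM with shSCR1 and 1.56 with shBRG1. ATP5MGL, the readthrough NDUFC2-KCTD14, COX6A2 and COX8C were the 4 members removed by the filter, each with at most 7 counts per sample of this comparison.

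**Figure D2:**
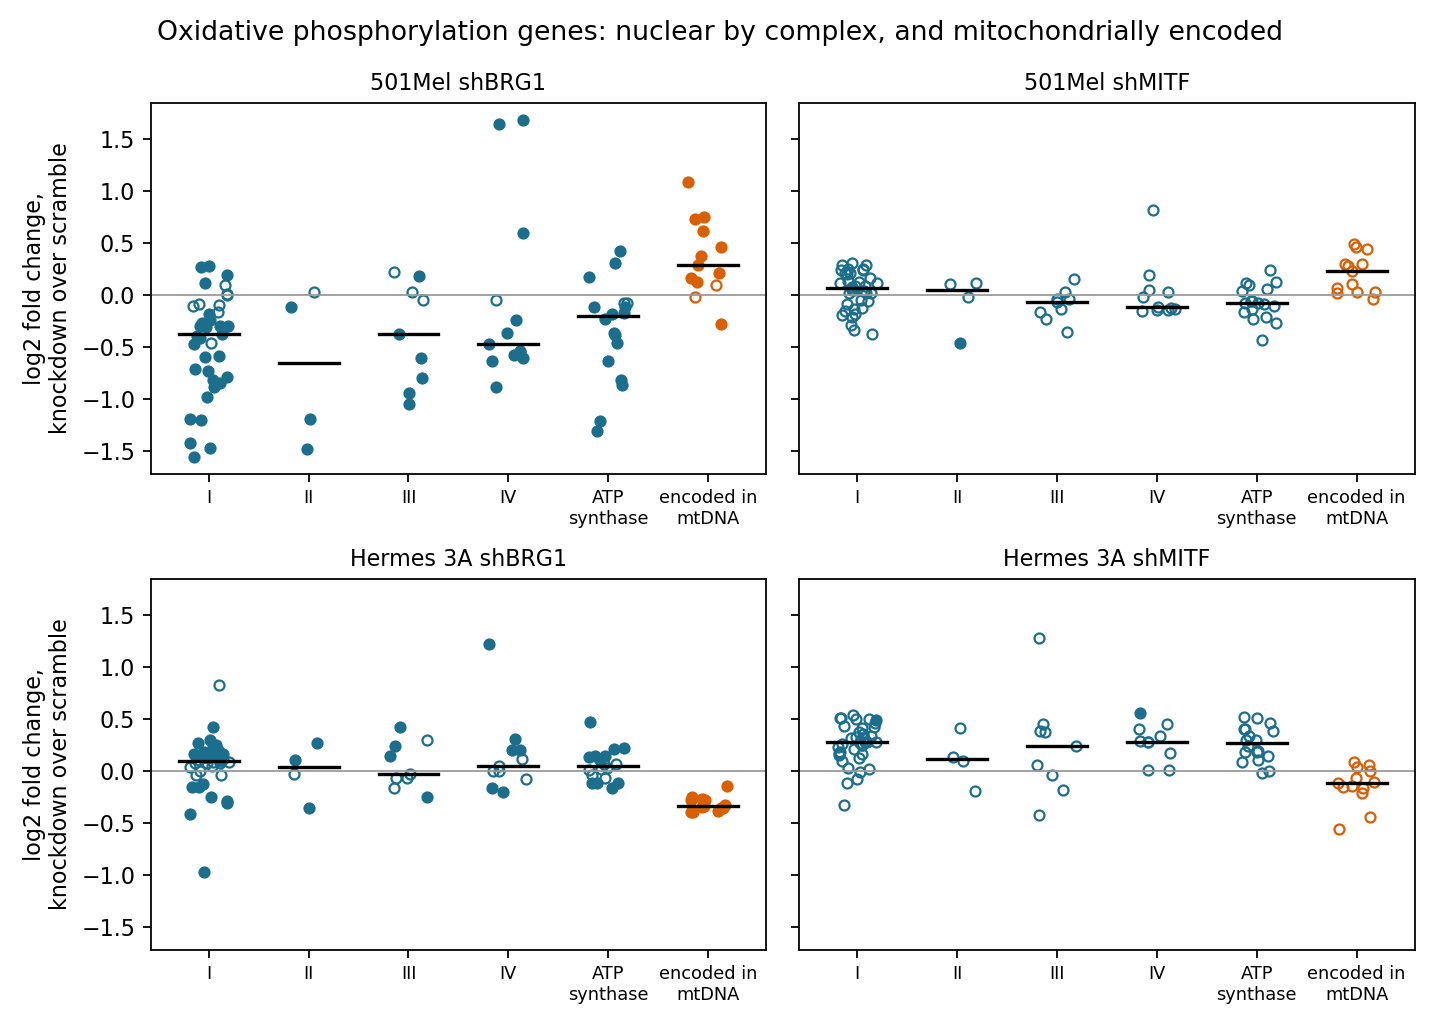
Log2 fold change of each tested member in the 4 comparisons, for nuclear members by complex and for the 13 mitochondrially encoded members. Filled points passed the test (adjusted p under 0.05), open points did not, and bars are medians: in 501Mel cells with shBRG1 the nuclear medians lie between -0.65 and -0.20 and the mitochondrial median at 0.29, while in Hermes 3A cells with shBRG1 the mitochondrial median lies at -0.33.

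The mitochondrially encoded members took a larger share of all reads after BRG1 silencing in 501Mel cells. They held 5.50 to 6.16% of counts in the shSCR1 samples and 8.13 to 8.99% in the shBRG1 samples, while the nuclear members held 0.860 to 0.893% and 0.795 to 0.812%. The ratio of the former to the latter within a sample, which no scaling between samples alters, was 7.17, 6.15 and 6.55 with shSCR1 and 10.1, 11.1 and 11.3 with shBRG1. All shBRG1 samples were above all shSCR1 samples, and the mean was 1.63 times as high. The libraries were treated with a duplex-specific nuclease that removes the most abundant cDNAs, so ratios between abundant and less abundant transcripts are those of the treated libraries.

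Within the mitochondrial genome the change was uneven. MT-ND6, the only subunit gene read from the opposite strand to the others, was at 1085, 835 and 946 CPM with shSCR1 and at 1809, 2229 and 2076 with shBRG1 (log2 fold change 1.09 ± 0.09, adjusted p = 4.0e-07). The complex I genes MT-ND5, MT-ND1 and MT-ND2 rose by 0.75 ± 0.07, 0.73 ± 0.07 and 0.62 ± 0.05, and MT-CYB, the mitochondrial subunit of complex III, by 0.46 ± 0.06. MT-ND3, MT-ATP6, MT-ATP8, MT-CO3 and MT-CO1 rose by 0.37, 0.29, 0.21, 0.16 and 0.13, the last with overlapping groups and an adjusted p of 0.045. MT-CO2, a catalytic subunit of cytochrome c oxidase, fell from 9135, 8775 and 8924 CPM to 6929, 7828 and 7367 (-0.28 ± 0.06, adjusted p = 7.5e-05), with no overlap between the groups. Under library sizes MT-CO2 changed by 0.07 and did not pass the test (adjusted p = 0.22). MT-ND4 and MT-ND4L changed by 0.10 ± 0.06 and -0.02 ± 0.06 and did not pass the test. The strand setting of the counting is not given in the sources used here, so reads of MT-ND6 and of RNA antisense to it cannot be told apart, and the same holds for reads in the overlaps of MT-ATP8 with MT-ATP6 and of MT-ND4L with MT-ND4.

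**Figure D3:**
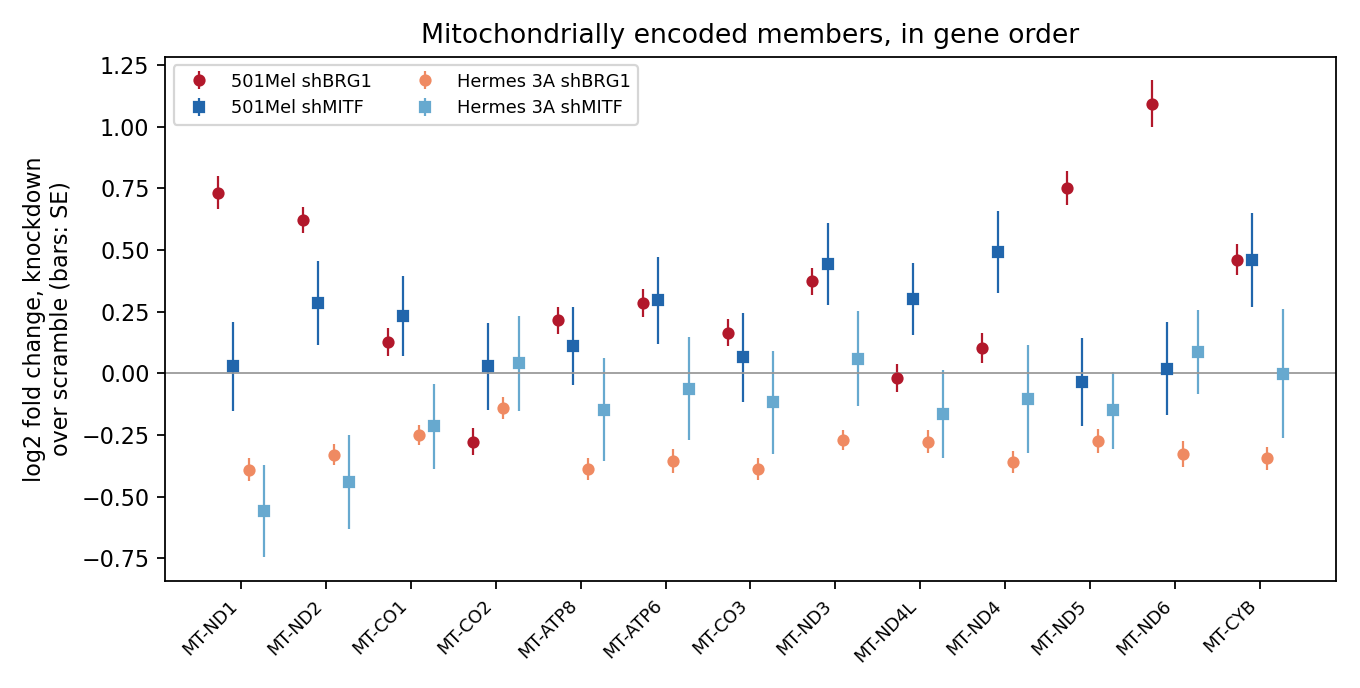
Log2 fold change with its SE for the 13 mitochondrially encoded members, in their order along the mitochondrial genome, in the 4 comparisons. With shBRG1 the members range from -0.28 to 1.09 in 501Mel cells and from -0.39 to -0.14 in Hermes 3A cells.

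The scramble groups of 501Mel cells also differed in members. Between shSCR2 and shSCR1, 39 of 80 tested nuclear members were higher and 15 lower, and 8 mitochondrial members were lower and 1 higher, with medians of 0.17 and -0.47 (under library sizes 32 and 21 nuclear members, and 0 and 10 mitochondrial members, with 30.1% of all genes higher and 40.0% lower). Among all 19056 genes tested, 35.3% were higher and 34.5% lower. The mitochondrial to nuclear ratio was 4.34 and 3.84 with shSCR2, below every shSCR1 sample. MT-ND3 and MT-ND4 differed most, by -0.89 ± 0.07 and -0.80 ± 0.09, and MT-ND5, which rose with shBRG1, was the 1 mitochondrial member higher with shSCR2, by 0.29 ± 0.11 (adjusted p = 0.037). The other large rises with shBRG1, MT-ND6, MT-ND1 and MT-ND2, had values of 0.05, 0.06 and -0.03 and did not pass the test (adjusted p = 0.72, 0.55 and 0.7). The mean ratio with shSCR2 was 0.617 times that with shSCR1, and the median of mitochondrial minus that of nuclear members was -0.64, as large in size as the 0.65 between shBRG1 and shSCR1. What separates these control groups was not tested.

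With shMITF in 501Mel cells, a comparison of 2 libraries per group, few members were called changed. In simulated data this comparison recovered 9 of 100 changes of 0.5 on the log2 scale, against 91 for shBRG1 in 501Mel cells. That simulation of shMITF left 17501 of 17701 genes unchanged. More genes were called in the data, where the adjustment was therefore less strict, so this value can understate the recovery in the data. Of 78 nuclear members tested 1 fell and 0 rose, with a median of -0.02, and of the 13 mitochondrial members 0 passed the test in either direction, with a median of 0.23. Of the 17701 genes tested, 10.5% fell and 10.0% rose, and 8.99% passed with an absolute log2 fold change over 1, as PPARGC1A alone did among members. At an unadjusted p under 0.05 there were 5 nuclear and 3 mitochondrial members, where 34.8% of all genes were, and DESeq2 called 3 falls and 1 rise among nuclear members and 1 rise among mitochondrial members. SDHB was at 164 and 197 CPM with shSCR2 and at 141 and 122 with shMITF (-0.46 ± 0.14, edgeR adjusted p = 0.045). The groups did not overlap, which was a condition for naming it. The call was lost under 5 alternatives, among them the replicate block (adjusted p = 0.051) and the pooled scramble samples (-0.18, adjusted p = 0.69).

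The other members did not pass the test. NDUFA5 and COX7B2 changed by -0.38 ± 0.12 and 0.82 ± 0.27 (edgeR adjusted p = 0.056 and 0.058). MT-ND4 had the largest value among mitochondrial members, 0.49 ± 0.17 (adjusted p = 0.065), and MT-CYB, MT-ND3, MT-ND4L, MT-ATP6, MT-ND2, MT-CO1 and MT-ATP8 had values of 0.46, 0.44, 0.30, 0.30, 0.28, 0.23 and 0.11. MT-CO3, MT-CO2, MT-ND1, MT-ND6 and MT-ND5 lay between -0.03 and 0.06. The mitochondrial to nuclear ratio was 4.20 and 5.79 with shMITF, against 4.34 and 3.84 with shSCR2, so the groups overlapped. For this ratio the shMITF samples differed from each other more than the group means did, and without shMITF replicate 1 the fit called 5 mitochondrial rises.

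**Figure D4:**
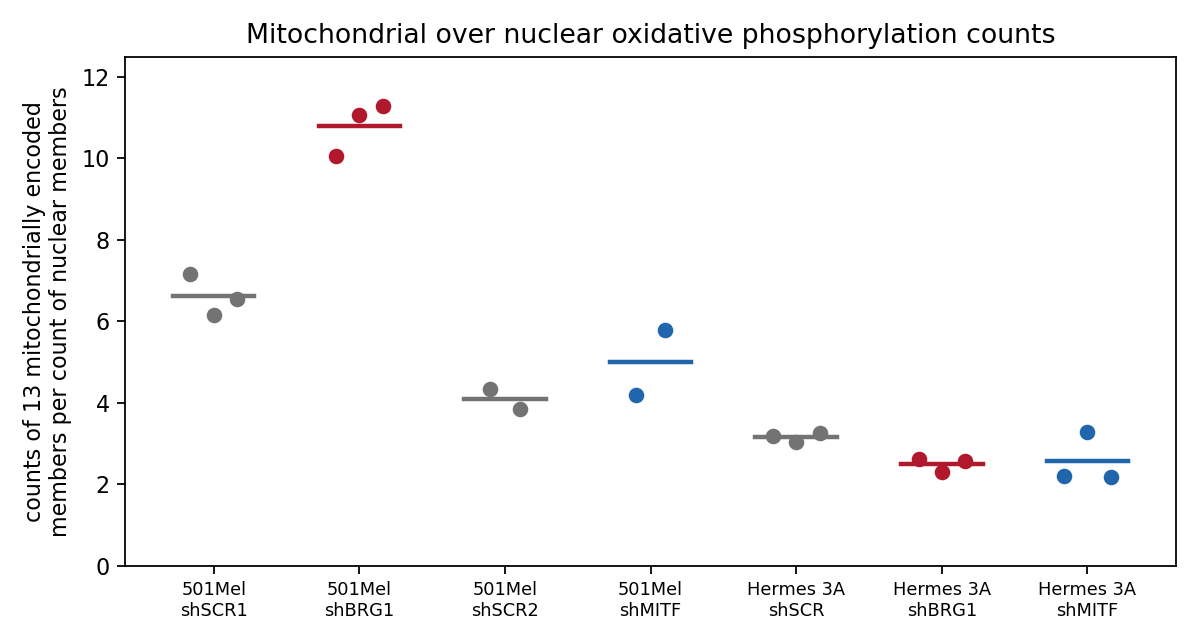
Counts of the 13 mitochondrially encoded members divided by counts of the nuclear members in each sample, with bars at the group means. The shBRG1 samples lie above their scramble samples in 501Mel cells (10.1 to 11.3 against 6.15 to 7.17) and below them in Hermes 3A cells (2.31 to 2.62 against 3.03 to 3.27).

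BRG1 silencing in Hermes 3A cells gave the reverse arrangement, with smaller changes. All 13 mitochondrially encoded members fell, with a median of -0.33, and of 79 tested nuclear members 32 rose and 16 fell, with a median of 0.08. Among all 17222 genes tested 28.6% fell and 28.2% rose, and 9.26% passed with an absolute log2 fold change over 1, a size that 1 nuclear member, COX6B2, reached at under 1 CPM. Under library sizes, which raised the median of all genes by 0.10, 48 nuclear members rose and 7 fell, and 12 mitochondrial members fell, while 37.1% of all genes rose and 21.4% fell. The share of counts in mitochondrial members was 2.52 to 2.70% with shSCR and 2.14 to 2.40% with shBRG1, and the mitochondrial to nuclear ratio was 3.18, 3.03 and 3.27 with shSCR and 2.62, 2.31 and 2.57 with shBRG1, without overlap. The calls rest on the small spread of these 6 libraries: in a fit with the shMITF samples included, 1 nuclear member rose, 2 fell and 0 mitochondrial members passed, at nearly equal fold changes.

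The mitochondrial members fell by like amounts. MT-ND1, MT-CO3 and MT-ATP8 fell most, by 0.39, 0.39 and 0.39, and MT-CO2 fell least, from 2290.0, 2205 and 2319 CPM to 2163, 1974 and 2042 (-0.14 ± 0.04, edgeR adjusted p = 0.0062). MT-ND4, MT-ATP6, MT-CYB, MT-ND2, MT-ND6, MT-ND4L, MT-ND5, MT-ND3 and MT-CO1 lay between -0.36 and -0.25. MT-ND6, which had the largest mitochondrial rise with shBRG1 in 501Mel cells, was at 901, 904 and 933 CPM with shSCR and at 802, 652 and 728 with shBRG1 (-0.33 ± 0.05, adjusted p = 4.3e-06). In each of the 13 genes every shBRG1 sample lay under every shSCR sample. The share of all genes separated in this way is not given here, and 28.6% of all genes fell in this comparison.

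The same 4 nuclear subunits had the largest falls as in 501Mel cells. NDUFB2 was at 65.7, 67.4 and 68.2 CPM with shSCR and at 34.5, 34.7 and 33.3 with shBRG1 (-0.97 ± 0.05, adjusted p = 4.4e-16). NDUFA5, SDHB and NDUFS1 changed by -0.41 ± 0.05, -0.36 ± 0.04 and -0.31 ± 0.04 (adjusted p = 9.4e-08, 7.4e-08 and 1.9e-07). Their groups did not overlap, which was a condition for naming the largest falls. The largest rises among members with at least 100 counts were those of ATP5IF1 (0.48 ± 0.05), which rose in both cell lines, of NDUFB7, an accessory subunit of complex I (0.43 ± 0.05), of UQCR10, a small subunit of complex III (0.42 ± 0.05) and of COX5B (0.31 ± 0.04). NDUFB7 and COX5B had fallen in 501Mel cells, by 0.30 and 0.55. COX7A2 and NDUFA4 fell by 0.20 and 0.12, COX7B rose by 0.21, and COX6A1, COX6B1, COX8A and UQCRH, at 0.11, -0.07, 0.05 and -0.07, did not pass the test.

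The effect of shBRG1 differed between the cell lines in most members. Among the 79 nuclear members tested in both, 23 fell in 501Mel cells and rose in Hermes 3A cells, 13 fell in both, 3 rose in both (ATP5IF1, ATP5MK and NDUFS5) and 2 rose in 501Mel cells and fell in Hermes 3A cells (ATP5MJ and COX7A2L). Of the 16213 genes tested in both lines, 8.67%, 21.7%, 14.9% and 4.69% fell into these classes. The test of the difference in 1 fit of both cell lines, each with its own scramble samples, placed 60 of 81 nuclear members lower and 3 higher in 501Mel cells, with a median difference of -0.50. It placed 12 of 13 mitochondrial members higher and 1, MT-CO2, lower, with a median difference of 0.61. Among all 21697 genes tested 33.1% were lower and 24.8% higher. Under library sizes 44 nuclear members were lower and 14 higher, and 12 mitochondrial members were higher and 0 lower, while 24.7% of all genes were lower and 35.2% higher. MT-CO2 was not called lower by DESeq2, library sizes or the replicate block. ATP5F1D, the delta subunit of ATP synthase, differed by -1.55 ± 0.08, NDUFS1 by -1.19 ± 0.07, SDHB by -1.15 ± 0.07 and MT-ND6 by 1.39 ± 0.15 (edgeR adjusted p = 4.4e-19, 2.6e-18, 3.3e-17 and 8.1e-06). COX7B2 had 0 counts in the Hermes 3A samples in which it was listed, and its difference had no usable estimate.

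**Figure D5:**
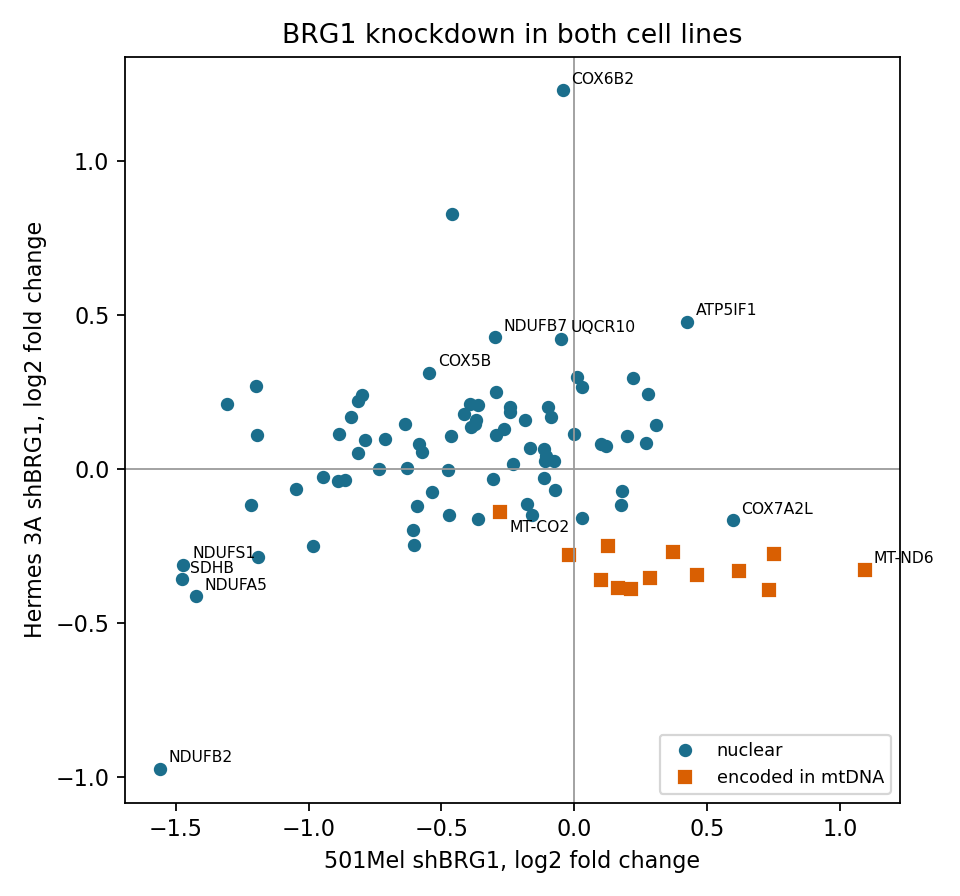
Log2 fold change with shBRG1 in 501Mel cells (x axis) and in Hermes 3A cells (y axis), for the 79 nuclear members tested in both (circles) and the 13 mitochondrially encoded members (squares). The mitochondrial members lie below 0 in Hermes 3A cells and, except MT-CO2 and MT-ND4L, above 0 in 501Mel cells, and NDUFB2, SDHB, NDUFS1 and NDUFA5 lie in the lower left.

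MITF silencing in Hermes 3A cells left most members without a called change. In simulated data this comparison recovered 5 of 100 changes of 0.5 on the log2 scale, against 88 for shBRG1 in Hermes 3A cells. That simulation of shMITF left 16308 of 16508 genes unchanged, fewer were called than in the data, and the value can understate the recovery in the data. Of 78 nuclear members tested 2 rose and 0 fell, with a median of 0.28, and 0 of 13 mitochondrial members passed the test, with a median of -0.12. Among all 16508 genes tested 7.85% rose and 9.15% fell, and 7.39% passed with an absolute log2 fold change over 1, as 0 members did. UQCRHL was at 1.28 (edgeR adjusted p = 0.12) and did not pass. At an unadjusted p under 0.05 there were 16 nuclear and 2 mitochondrial members, where 32.5% of all genes were, and DESeq2 called 7 nuclear rises, 0 nuclear falls and 1 mitochondrial fall. COX5B, a nuclear subunit of cytochrome c oxidase, was at 112, 113 and 106 CPM with shSCR and at 195, 137 and 158 with shMITF (0.56 ± 0.15, edgeR adjusted p = 0.036). NDUFS4, an accessory subunit of complex I, rose by 0.50 ± 0.13 (adjusted p = 0.031). The groups did not overlap in either gene, which was a condition for naming them. Without any 1 of the shSCR replicates 0 members rose.

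Replicates of shMITF in Hermes 3A cells differed widely. The nuclear members held 1.21% of counts in replicate 1 and 0.899 and 0.906% in the other two, against 0.823 to 0.833% with shSCR. Without replicate 1 the fit called 3 nuclear rises and 4 nuclear falls and a nuclear median of 0.05, and without replicate 2 it called 9 nuclear rises. The mitochondrial to nuclear ratio was 2.20, 3.29 and 2.19 with shMITF, so the groups overlapped. MT-ND1 and MT-ND2 had the lowest values, -0.56 ± 0.19 and -0.44 ± 0.19 (edgeR adjusted p = 0.075 and 0.15), and the other 11 lay between -0.21 and 0.09.

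The effects of shMITF in the 2 cell lines were not shown to differ for any subunit. In the test of the difference, 0 of 79 nuclear and 0 of 13 mitochondrial members passed, where 2.16% of all 19284 genes were higher and 0.83% lower in 501Mel cells. In simulated data this test recovered 0 of 100 changes of 0.5 on the log2 scale. That simulation left 19084 of 19284 genes unchanged, fewer were called than in the data, and the value can understate the recovery in the data. The median difference of nuclear members was -0.26, with 71 values below 0 and 8 above. For mitochondrial members it was 0.37, with 11 values above 0 and 2 below. At an unadjusted p under 0.05 there were 7 nuclear and 1 mitochondrial members, where 17.6% of all genes were, and DESeq2 placed 1 nuclear member lower. Between shBRG1 and shMITF in 501Mel cells, 43 of 81 nuclear members were lower and 6 higher with shBRG1, and 3 of 13 mitochondrial members were higher (MT-ND6, MT-ND5 and MT-ND1) and 1 lower (MT-ND4). Of all 22255 genes 26.8% were lower and 21.2% higher. Under library sizes 29 nuclear members were lower and 12 higher, and 4 mitochondrial members were higher and 0 lower, while 21.2% of all genes were lower and 28.5% higher. MT-ND4 passed narrowly (edgeR adjusted p = 0.0495) and was not called lower by DESeq2, library sizes or the replicate block. This difference contains that between shSCR1 and shSCR2.

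Genes that act with the respiratory chain were read from lists, whose counts are to be read against the shares of all genes given above for each comparison. In 501Mel cells 39.1% of all genes fell and 41.2% rose with shBRG1, and 10.5% and 10.0% with shMITF. For Hermes 3A cells the shares were 28.6% and 28.2% with shBRG1, and 9.15% and 7.85% with shMITF. Among 18 genes of the tricarboxylic acid cycle, which supplies the chain with NADH and succinate, 17 fell and 0 rose with shBRG1 in 501Mel cells (median -0.75), and 8 fell and 1 rose in Hermes 3A cells (median -0.08). Under library sizes these were 14 falls and 2 rises, and 3 falls and 5 rises. OGDH, of the oxoglutarate dehydrogenase complex, fell from 154, 171 and 168 CPM to 25.0, 26.5 and 28.9 in 501Mel cells (-2.62 ± 0.06, adjusted p = 2.2e-21), and by 0.80 in Hermes 3A cells. SUCLG2, a subunit of succinyl-CoA ligase, fell by 2.57 in 501Mel cells and by 0.42 in Hermes 3A cells. IDH2, the mitochondrial isocitrate dehydrogenase that uses NADP, fell by 2.27 in 501Mel cells and was at -0.03 in Hermes 3A cells, where it did not pass the test. The test of the difference placed 17 of the 18 genes lower in 501Mel cells. With shMITF 3 of 18 fell in 501Mel cells (DLST, DLAT and IDH3A, by 0.48, 0.46 and 0.44) and 1 in Hermes 3A cells (OGDH, by 0.52), whereas under library sizes 0 fell with shMITF in either line and 1 rose in Hermes 3A cells. With shSCR2, the control for shMITF in 501Mel cells, 12 of the 18 genes were higher than with shSCR1 and 2 lower (median 0.33).

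Among 11 coactivators and factors of the PGC-1 and ERR group, 7 fell and 2 rose with shBRG1 in 501Mel cells (median -0.53), 5 fell and 1 rose with shMITF (median -0.29), 3 fell and 2 rose with shBRG1 in Hermes 3A cells (median -0.0034) and 1 fell and 0 rose with shMITF (median 0.25). Under library sizes these were 6 falls and 4 rises, 2 and 1, 3 and 2, and 0 and 2. Between shSCR2, the control for shMITF, and shSCR1, 9 of the 11 genes were higher and 1 lower (median 0.57). PERM1, a muscle-enriched regulator in the PGC-1 and ERR pathway, fell by 3.03 with shBRG1 and by 2.89 with shMITF in 501Mel cells, where it was at 3.14 CPM with shSCR1 and 7.38 with shSCR2. PPARGC1B, which encodes PGC-1beta, fell by 1.15 with shMITF in 501Mel cells and by 0.88 in Hermes 3A cells (adjusted p = 0.0029 and 0.039). YY1 fell with shBRG1 in both cell lines, by 1.13 and 0.55, and GABPB1, a subunit of the NRF2 factor, rose in both, by 0.89 and 0.55.

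Of 17 genes for the transcription and replication of mitochondrial DNA and the stability of its RNA, 11 rose and 6 fell with shBRG1 in 501Mel cells (median 0.64). MTERF1, a factor of mitochondrial transcription termination, rose by 1.59, TFB2M, the mitochondrial transcription factor B2, by 1.05, and TWNK, the mitochondrial helicase, by 0.79. With shMITF in 501Mel cells 5 fell and 0 rose (median -0.21), among them TFAM, which packages mitochondrial DNA, by 0.62 and LRPPRC, which stabilises mitochondrial mRNA, by 0.58. In Hermes 3A cells 5 rose and 2 fell with shBRG1 (median 0.01) and 2 fell and 0 rose with shMITF (median 0.11). Of all genes there, 28.2% rose and 28.6% fell with shBRG1, and 9.15% fell and 7.85% rose with shMITF. FASTKD2, an RNA-binding protein of mitochondria, fell in all 4 comparisons, by 1.03 with shBRG1 and 1.07 with shMITF in 501Mel cells and by 0.56 and 0.62 in Hermes 3A cells, but it was also higher with shSCR2 than with shSCR1, by 1.71. Between shSCR2 and shSCR1, 14 of these 17 genes were higher and 2 lower. Under library sizes 11 rose and 5 fell, 0 and 2, 6 and 1, and 1 and 1 in the order of the comparisons above.

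Assembly factors were called at rates near those of all genes with shBRG1 in 501Mel cells, where 41.2% rose and 39.1% fell. Of 45 assembly factors, 22 rose and 19 fell with shBRG1 in 501Mel cells, 2 rose and 4 fell with shMITF, 12 rose and 14 fell with shBRG1 in Hermes 3A cells and 4 rose and 4 fell with shMITF. Under library sizes these were 29 and 11, 3 and 3, 17 and 8, and 4 and 3. With shSCR2, 23 of the 45 factors were higher than with shSCR1 and 9 lower. SDHAF2, which inserts the flavin of complex II, rose with shBRG1 in both cell lines, by 1.46 and 0.58, while SDHA and SDHB fell in 501Mel cells. COA7 and LYRM7, assembly factors of complexes IV and III, fell with shMITF in both cell lines, by 0.79 and 0.75 in 501Mel cells and by 0.75 and 0.77 in Hermes 3A cells. CYC1, cytochrome c1 of complex III, and COX4I1 of complex IV, which the symbol patterns do not match, fell by 1.08 and 0.60 with shBRG1 in 501Mel cells, and CYC1 rose by 0.16 in Hermes 3A cells. Of 9 antioxidant genes tied to PGC-1alpha, 6 fell and 3 rose with shBRG1 in 501Mel cells, 2 fell and 0 rose with shMITF, 3 fell and 3 rose with shBRG1 in Hermes 3A cells and 1 rose and 0 fell with shMITF. Under library sizes these were 5 falls and 3 rises, 1 and 1, 2 and 4, and 0 and 1. UCP2, a mitochondrial carrier, fell by 2.52 and 1.36 with shBRG1 and shMITF in 501Mel cells, and PRDX3, the mitochondrial peroxiredoxin, by 1.18 and 0.57.

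Per kilobase of exon, mitochondrially encoded members stood far above nuclear ones in all groups. Their median level was 4694 CPM per kilobase with shSCR1 in 501Mel cells and 1972 with shSCR in Hermes 3A cells, against 31.4 and 33.9 for nuclear members. MT-CO2 was highest with shSCR1, at 11199 CPM per kilobase, and MT-CO1 with shSCR in Hermes 3A cells, at 4706, while ATP5F1B, the catalytic beta subunit of ATP synthase, led the nuclear members in both, at 431 and 528. PPARGC1A was at 13.8 CPM per kilobase with shSCR1 and at 0.272 with shSCR in Hermes 3A cells. Reads counted on pseudogenes of mitochondrial genes were 1.99 to 2.27% of those on the 13 members in 501Mel cells and 0.656 to 0.708% in Hermes 3A cells, and reads on pseudogenes of nuclear members were at most 0.147% of those on the members.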

How the data were processed

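The 19 RNA-seq samples were assigned to 7 groups by their labels. Per the labels, total RNA was depleted of ribosomal RNA and libraries were treated with duplex-specific nuclease, which lowers abundant cDNAs. For each replicate the authors deposited unnormalized counts of reads by Ensembl gene. The submitters' processing notes name CASAVA 1.8, TopHat 1.4.1, Bowtie 0.12.7 and the build hg19, and the counting program and strand setting are not given in the sources used here. Totals ran from 29158502 to 78857900 counts per sample.

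Each knockdown was fitted with its own scramble group in edgeR 4.0.16 (R 4.3.3) with TMM, filterByExpr, a robust quasi-likelihood fit and Benjamini-Hochberg adjustment over all genes tested. Members passed at an adjusted p under 0.05. SE is the fold change over the square root of F. Differences between effects were contrasts in 1 fit. Alternatives were DESeq2 1.42.0, library sizes, scaling without mitochondrial genes, no filter, a minimum of 10 counts in each sample, a replicate block, a fit of all groups of a cell line, pooled scramble groups, a fold-change threshold and each replicate left out. Code was tested on simulated data. Replicates were compared by chi-square, and none differed by less than the sampling noise.

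The members and lists were chosen with earlier results of these data known. Named subunits were PPARGC1A, the 13 mitochondrially encoded members, isoform pairs and, per comparison, up to 4 rises and 4 falls with at least 100 counts and no overlap, with up to 4 genes per list by adjusted p. In addition, 1 gene picked by the list rule is not reported here. SDHA, UQCRC2 and ATP5F1D were named after their values were seen, as were the members listed where calls of both cell lines meet. Symbols matched 40913 of 44717 identifiers. Coordinates and lengths are from GENCODE 29 on GRCh38 and promoters from RefSeq on GRCh38.p14; the files gave no coordinates. Python 3.11.15 with pandas 2.3.3, numpy 2.4.6 and matplotlib 3.10.9 made tables and figures.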

Additional observations from a re-analysis of the deposited data

Results flagged for a closer look

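The effect of shBRG1 on PPARGC1A differed between the cell lines by -4.35 on the log2 scale, that of shMITF by -1.96, and the effects of shBRG1 and shMITF within 501Mel cells by -1.65, each by a test of the difference itself. For shBRG1 the difference between cell lines passed the test in 60 nuclear members that were lower in 501Mel cells and 3 that were higher, and in 12 mitochondrially encoded members that were higher and 1 that was lower. For shBRG1 against shMITF in 501Mel cells it passed in 43 nuclear members that were lower with shBRG1 and 6 that were higher, and in 3 mitochondrially encoded members that were higher and 1 that was lower. The comparison of knockdowns contains the difference between shSCR1 and shSCR2, and these cannot be told apart.

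The mitochondrial ribosomal RNAs MT-RNR1 and MT-RNR2, which are no members and are subject to the depletion of ribosomal RNA, also took a larger share of counts with shBRG1 in 501Mel cells, 2.27% on average (2.20 to 2.35%) against at most 1.403% in the shSCR1 and shSCR2 samples, where it began at 1.27%. In Hermes 3A cells it was 0.202 to 0.274% with shSCR and 0.198 to 0.369% with shBRG1.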

How the results depend on the processing

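Over the main counts, median differences and PPARGC1A values, 220 recomputed values were classed as the same, 40 as moved, 3 as weaker and 2 as reversed. Counts were classed as the same within a ratio of 1.5, and other values where they kept their direction and side of the threshold. With shBRG1 in 501Mel cells (21 rises and 57 falls of members), library sizes gave 45 rises and 34 falls, pooled scramble groups 12 rises and a difference of mitochondrial minus nuclear medians of 0.89, and the fold-change threshold 3 rises and 11 falls. With shBRG1 in Hermes 3A cells (33 and 29), library sizes gave 19 falls, all groups in 1 fit 2 rises and 2 falls, and the threshold 1 rise and 0 falls. With shMITF in 501Mel cells (0 and 2), DESeq2 gave 2 and 4, library sizes 3 and 1, no filter 4 rises, at least 10 counts 1 fall, all groups 6 and 10, pooled scramble groups 0 falls, a median difference of -0.054 and PPARGC1A at -1.33, and the threshold 1 fall. With shMITF in Hermes 3A cells (2 and 0), DESeq2 gave 7 and 1, library sizes 14 rises, no filter 6 and 1, all groups 13 and 1, and the threshold 0 rises. The cause of these changes was not tested. The pooled scramble groups differ from each other, and the widely spread shMITF samples are part of the fits of all groups. With mitochondrial genes left out of the scaling 2 nuclear members fell with shMITF in 501Mel cells, against 1.

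With a replicate left out, members rose 18 to 21 times and fell 53 to 63 times (501Mel shBRG1), 0 to 5 and 1 to 3 (501Mel shMITF), 24 to 38 and 24 to 30 (Hermes 3A shBRG1) and 0 to 9 and 0 to 6 (Hermes 3A shMITF). The difference of medians ran from 0.59 to 0.70, 0.01 to 0.36, -0.48 to -0.36 and -0.64 to -0.18, and PPARGC1A from -3.48 to -3.30, -1.83 to -1.61, 0.85 to 1.00 and -0.011 to 0.53, the last below 0 without shMITF replicate 2. The difference in the shMITF effect on PPARGC1A ran from -2.24 to -1.73. Same-numbered samples did not deviate together in every pair (correlations of -0.10 to 0.16), so the numbers were not taken to pair them. With the replicate block 20 members rose and 59 fell with shBRG1 in 501Mel cells, 1 rose with shMITF in 501Mel cells and 1 in Hermes 3A cells. MT-CO2 with shBRG1 in 501Mel cells was at 0.070 under library sizes and 0.0026 against pooled scramble groups, and MT-ND4L at 0.33, at 0.11 with at least 10 counts, at 0.23 pooled, and at -0.11 to 0.038 with a replicate left out. Depth limits only members under about 1 CPM, and small values with shMITF rest on few and variable libraries.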
